A study of Mus musculus with 4 samples.

Results

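The genes described here are 35 genes of the contractile cytoskeleton, many of them known targets of serum response factor (SRF) and its myocardin-related coactivators (MRTF). They were chosen by symbol, with earlier results of these arrays known. Each was read from the probe set that the platform annotation gives to that symbol, or from the brightest one where a gene had several, and 33 of the 35 were measured among 19505 genes in all. Actg1 and Pdlim7 were not analysed here, because no probe set carries their symbols in the annotation used.

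The study compared macrophages of wild-type (WT) mice with macrophages of mice lacking Hem1, labelled Hem1 KO. Hem1, encoded by Nckap1l, is the blood cell subunit of the WAVE complex, which turns on branched actin assembly. In both genotypes, femur marrow was grown for 8 days in RPMI with 20% L929-conditioned medium, a source of the growth factor CSF1, and 10% serum, and the labels mention no sorting of the cells. Each genotype has 2 arrays, made from distinct mice. Strain, age, sex and the deleted part of Nckap1l are not given in the sources used here.

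Nckap1l read 11.37 and 11.11 in WT (replicates 1 and 2, in this order throughout) against 10.04 and 9.62 in Hem1 KO cultures, so the groups did not overlap, and it was lower by limma (log2 difference -1.41, adjusted p = 0.0467). It did not pass when WT replicate 1 (adjusted p = 0.381), WT replicate 2 (0.128) or Hem1 KO replicate 2 (0.0874) was left out. Probes that lie outside what was deleted cannot check the labels. All values are log2 values as deposited, and a gene counts as above background on an array where it exceeds the 95th percentile of 1448 chemosensory receptor genes there, which lay between 5.38 and 6.04. Of the 9 measured macrophage markers, 9 were above background on all 4 arrays, among them Lyz2, Csf1r and Adgre1. Precision is limited by the number of arrays.

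SRF is a transcription factor that binds a short DNA element, the CArG box, in the promoters of actin and actin-binding genes. MRTF proteins are held in the cytoplasm by monomeric actin. When monomers are used up in filaments, MRTF enters the nucleus and joins SRF. In smooth muscle the related coactivator myocardin drives the same element, and smooth muscle cells, myofibroblasts and pericytes carry many of these products in abundance. Macrophages use mainly the cytoplasmic isoforms of the same protein families.

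Cnn1, Acta2, Actg2 and Tagln of smooth muscle, 6 genes grouped as muscle-enriched and the nonmuscle myosin gene Myh10 were called higher in the Hem1 KO cultures. The 6 include Cnn3, which is also found in many nonmuscle cells. Of the 33 measured genes, limma called 11 higher (33.3%) and 0 lower at an adjusted p under 0.05, beside 1.48% of all genes called higher and 0.133% called lower. The 11 ran from a log2 difference of 1.47 for Myl9 to 2.90 for Cnn1. Before adjustment, 17 had p under 0.05 and were higher and 0 were lower by limma, beside 3.63% and 1.57% of all genes. Both Hem1 KO arrays lay above both WT arrays for 24 of the 33 (72.7%), beside 12.5% of all genes, and below both for 2, Actb and Tpm3, beside 13.3%. The median difference was 0.81 over the 33 genes and 0.01 over all genes. Since the genes were chosen with earlier results of these arrays known, these shares describe the list.

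By role, 4 of 7 genes grouped as smooth muscle genes, among them the Z-disc protein Synpo2, were called higher, with a median difference of 1.66. Of 15 measured genes grouped as rich in muscle but made more widely, 6 were called, with a median of 1.26. Among the 6 was Cnn3, found in many nonmuscle cells. Of 10 measured genes grouped as ubiquitous or nonmuscle, 1 was called, with a median of 0.18. The same fit called 0 lower in each of these groups, also before adjustment (p under 0.05). The smooth muscle count was 2 in the fit lacking WT replicate 2, and the ubiquitous count was 2 in that lacking Hem1 KO replicate 2. Whether the share called differed between the roles was not tested. Changes in the number of cells of a type and in RNA per cell cannot be told apart in such cultures. Stromal fibroblast markers were higher on the same arrays, with 5 of 11 called (3 without WT replicate 2) and a median difference of 1.57, and their part in these differences was not tested.

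**Figure D1:**
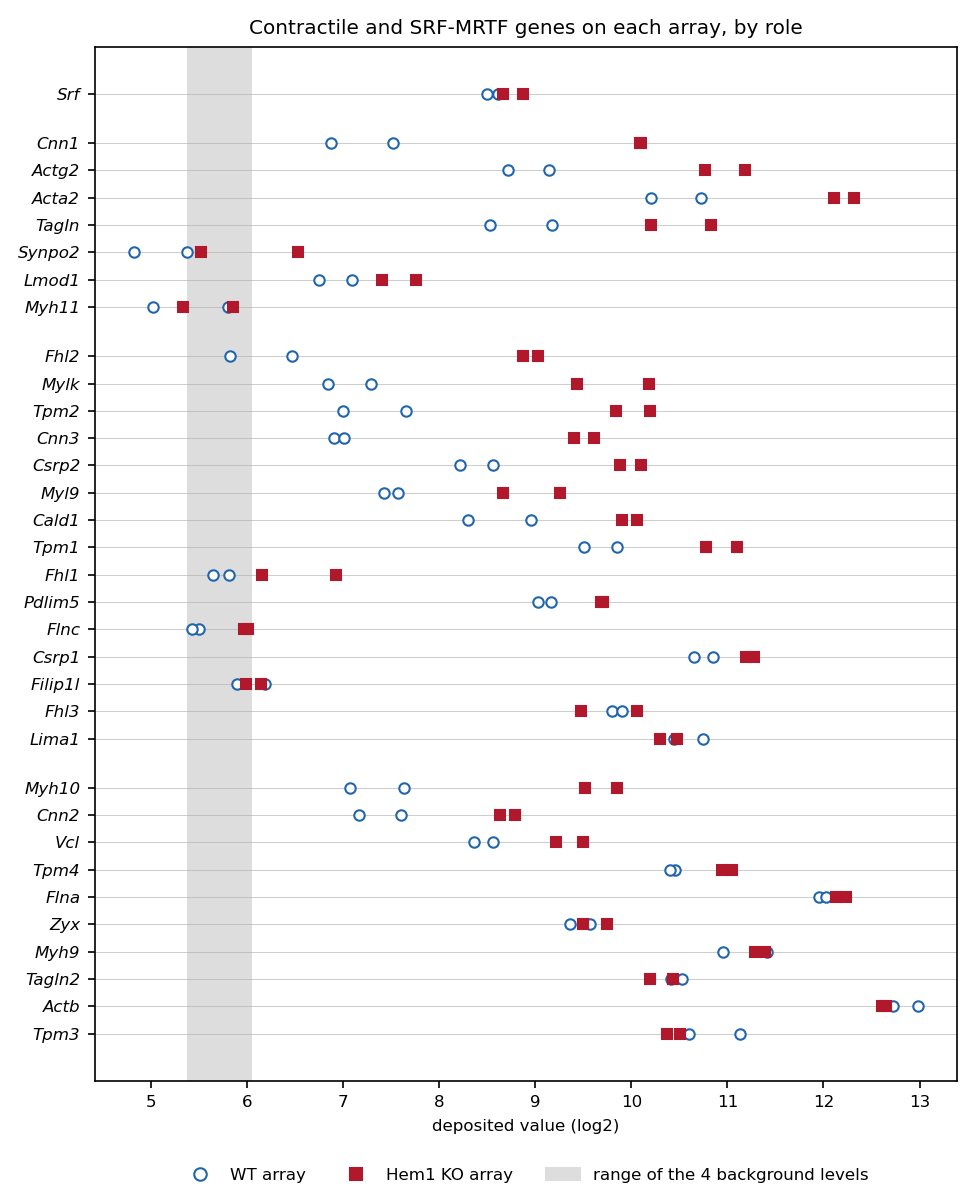
Deposited log2 value of each measured gene on the 2 WT arrays (open circles) and the 2 Hem1 KO arrays (filled squares), grouped by role (regulator, smooth muscle, muscle-enriched, ubiquitous) and ordered by difference within each role; the grey band spans the 4 arrays' background levels. For Cnn1 the WT arrays read 7.51 and 6.87 and the Hem1 KO arrays 10.09 and 10.10, whereas Actb reads 12.98 and 12.72 in WT against 12.61 and 12.65 in Hem1 KO cultures.

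Srf itself was not called. It read 8.61 and 8.50 in WT against 8.88 and 8.66 in Hem1 KO cultures, a difference of 0.22 (SE 0.31). The arrays of the genotypes did not overlap, but the difference was smaller than its standard error.

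Promoters of these genes were searched for the CArG box in its exact consensus form, which reads the same on both strands, in 300 bases from 250 before to 50 after each RefSeq transcription start (GRCm38.p6). RefSeq promoters were matched for 30 of the 35 genes, and not for Actg2, Tagln, Myh11, Csrp2 and Actb. At least 1 exact box was found for 9 of the 30 (30.0%), beside 1.81% of all 27025 genes with a promoter and 1.63% of 32851 promoters. Membership in this list reflects, in part, what is known of SRF targets. The sequences below, 250 bases upstream of the start and 5′ to 3′ on the strand of the gene, have each exact box in capitals. They show the 2 boxes of Srf, the boxes of the called genes Myl9 and Fhl2, the shared box of Cnn2 and Lima1, and the window of Cnn1, which had the largest difference and no exact box there.
Srf, chr17:46556163-46556412, minus strand: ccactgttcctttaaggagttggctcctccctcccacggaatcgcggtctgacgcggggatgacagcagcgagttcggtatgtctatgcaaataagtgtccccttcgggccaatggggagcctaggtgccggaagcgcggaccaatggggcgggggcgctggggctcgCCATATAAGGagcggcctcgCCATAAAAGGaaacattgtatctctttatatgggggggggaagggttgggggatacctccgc
Myl9, chr2:156775214-156775463, plus strand: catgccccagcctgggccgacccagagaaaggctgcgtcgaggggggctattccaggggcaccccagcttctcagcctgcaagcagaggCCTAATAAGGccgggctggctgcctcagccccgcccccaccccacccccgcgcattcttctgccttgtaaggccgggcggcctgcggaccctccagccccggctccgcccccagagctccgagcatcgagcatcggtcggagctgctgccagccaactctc
Fhl2 at its first listed start, chr1:43196762-43197011, minus strand: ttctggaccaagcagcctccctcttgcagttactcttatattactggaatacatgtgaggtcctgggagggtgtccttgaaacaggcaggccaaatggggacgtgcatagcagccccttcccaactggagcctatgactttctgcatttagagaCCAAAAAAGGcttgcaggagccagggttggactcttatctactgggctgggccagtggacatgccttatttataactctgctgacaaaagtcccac
Fhl2 at its second listed start, chr1:43163962-43164211, minus strand: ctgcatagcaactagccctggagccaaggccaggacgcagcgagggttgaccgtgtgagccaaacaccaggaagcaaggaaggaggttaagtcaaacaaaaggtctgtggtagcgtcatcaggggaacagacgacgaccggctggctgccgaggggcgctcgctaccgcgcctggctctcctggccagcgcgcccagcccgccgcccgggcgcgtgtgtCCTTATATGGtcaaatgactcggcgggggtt
Cnn2, chr10:79988350-79988599, plus strand: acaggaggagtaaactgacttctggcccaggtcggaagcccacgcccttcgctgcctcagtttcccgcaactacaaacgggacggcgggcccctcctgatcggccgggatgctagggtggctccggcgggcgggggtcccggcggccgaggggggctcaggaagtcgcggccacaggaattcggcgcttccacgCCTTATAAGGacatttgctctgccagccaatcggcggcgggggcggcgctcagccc
Lima1, chr15:99820150-99820399, minus strand: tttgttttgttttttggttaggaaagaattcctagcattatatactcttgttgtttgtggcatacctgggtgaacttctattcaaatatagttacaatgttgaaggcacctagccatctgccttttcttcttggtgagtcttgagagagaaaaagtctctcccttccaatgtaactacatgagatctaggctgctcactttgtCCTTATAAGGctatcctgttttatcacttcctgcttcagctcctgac
Cnn1, chr9:22099003-22099252, plus strand: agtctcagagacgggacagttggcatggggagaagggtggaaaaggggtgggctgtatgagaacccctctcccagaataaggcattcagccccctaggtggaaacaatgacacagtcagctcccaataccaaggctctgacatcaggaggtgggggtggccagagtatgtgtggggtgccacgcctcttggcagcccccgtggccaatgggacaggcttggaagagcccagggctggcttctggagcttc

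Boxes were found among both called and uncalled genes, and the called genes Actg2, Tagln and Csrp2 could not be searched. Of 8 called genes with a promoter, 2 held a box, Myl9 and Fhl2, and of 20 measured but uncalled genes with a promoter, 6 did: Cnn2, Vcl, Fhl1, Srf, Filip1l and Lima1. Cnn2 and Lima1 carry the same 10 letters, CCTTATAAGG, at -56 and -47 bases from the start, and differed by 1.32 and -0.21 between the genotypes. Fhl2 holds a box at each of its listed starts, at -96 and -31, and Srf holds a pair at -82 and -62. A match is a stretch of letters and shows no binding, and a window without one says only that these letters are not in it. The hexamer GGAATG or its reverse complement CATTCC, the core of the element bound by TEAD factors, was found for 10 of the 30 genes (33.3%), beside 16.6% of all genes with a promoter. It was in 3 of the 8 called genes (37.5%), Acta2, Mylk and Myh10, and in 7 of the 20 uncalled ones (35%), Lmod1, Tpm1, Flnc, Cald1, Tagln2, Flna and Vcl. Only the promoter of Vcl held both a box and the hexamer, and the position of its hexamer was not recorded.

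**Figure D2:**
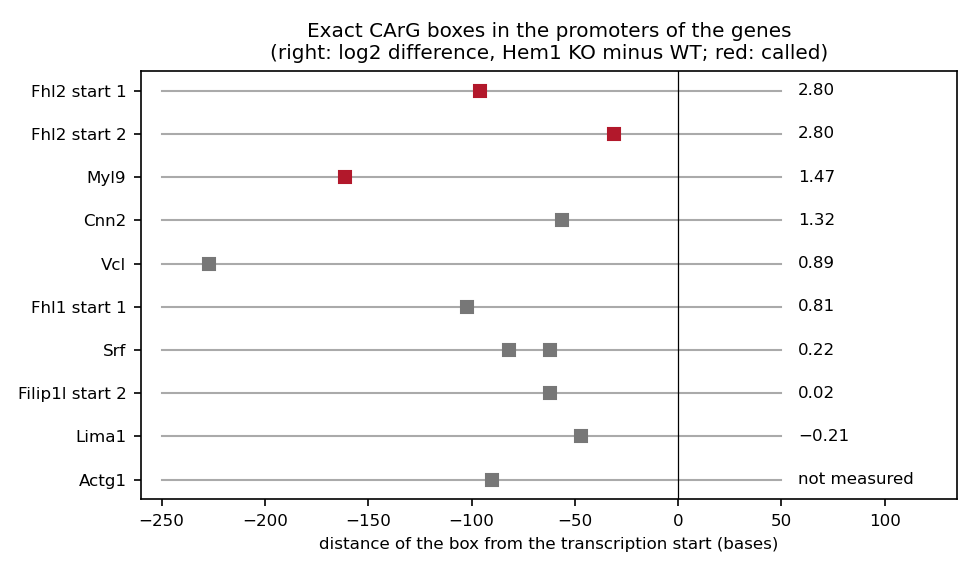
Position of each exact CArG box (square) in the promoters that hold one, as the distance in bases of its first base from the transcription start, with the log2 difference of the gene, Hem1 KO minus WT, at the right; red marks called genes and grey lines mark the 300-base window. Boxes lie between -227 (Vcl) and -31 (Fhl2), and the genes' differences run from -0.21 (Lima1) to 2.80 (Fhl2), with Actg1 not measured.

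Among the smooth muscle genes, Cnn1 changed most. Cnn1 encodes calponin 1, an actin-binding protein that restrains the actomyosin motor. It read 7.51 and 6.87 in WT against 10.09 and 10.10 in Hem1 KO cultures, 7.49-fold higher (log2 difference 2.90, SE 0.33, limma adjusted p = 0.000923). The lower Hem1 KO array stood well over the higher WT array. The smooth muscle actins rose as well. Acta2, alpha smooth muscle actin, read 10.72 and 10.20 in WT against 12.32 and 12.11 in Hem1 KO cultures, 3.37-fold higher (1.75, SE 0.33, limma adjusted p = 0.0123). Actg2, gamma smooth muscle actin of the gut wall, read 9.14 and 8.71 in WT against 11.19 and 10.76 in Hem1 KO cultures, 4.15-fold higher (2.05, SE 0.33, limma adjusted p = 0.00464). Neither actin showed overlap between the genotypes, and both were bright in WT cultures too. Tagln, transgelin or SM22 alpha, a small actin-bundling protein, read 9.18 and 8.53 in WT against 10.83 and 10.21 in Hem1 KO cultures, 3.17-fold higher (1.66, SE 0.35, limma adjusted p = 0.0301). Acta2 (adjusted p = 0.165) and Tagln (adjusted p = 0.337) did not pass when WT replicate 2 was left out.

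The other smooth muscle genes were not called. Myh11, the smooth muscle myosin heavy chain that defines the differentiated cell, lay below background on all 4 arrays, at 5.80 and 5.02 in WT against 5.86 and 5.33 in Hem1 KO cultures. Lmod1, leiomodin, which seeds actin filaments in smooth muscle, read 7.09 and 6.74 in WT against 7.76 and 7.40 in Hem1 KO cultures, a difference of 0.66 (SE 0.32). Synpo2, a Z-disc and actin-bundling protein, was below background on both WT arrays, at 5.38 and 4.82. On both Hem1 KO arrays it was above background, at 6.53 and 5.52. The Hem1 KO mean was 1.25-fold over the WT background, and Synpo2 was not called (limma adjusted p = 0.727). It passed the threshold without Hem1 KO replicate 2 (adjusted p = 0.0166). Lmod1 lies near Csrp1 in the RefSeq gene order, with 3 protein-coding genes between them, and Csrp1 was not called either.

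The muscle-enriched genes ranged from several-fold higher to near 0. Fhl2, a LIM protein that also acts as a transcriptional cofactor, read 6.46 and 5.82 in WT against 9.03 and 8.87 in Hem1 KO cultures, 6.98-fold higher (2.80, SE 0.33, limma adjusted p = 0.00102). Mylk, myosin light chain kinase, which switches on smooth muscle myosin, read 7.28 and 6.84 in WT against 10.19 and 9.43 in Hem1 KO cultures, 6.71-fold higher (2.75, SE 0.35, limma adjusted p = 0.00175). Tpm2, beta tropomyosin, which lines actin filaments, read 7.65 and 6.999 in WT against 10.19 and 9.84 in Hem1 KO cultures, 6.45-fold higher (2.69, SE 0.34, limma adjusted p = 0.00155). All of these had the Hem1 KO arrays clear of the WT arrays. Cnn3, the acidic calponin found in many nonmuscle cells, read 6.91 and 7.01 in WT against 9.61 and 9.40 in Hem1 KO cultures, 5.87-fold higher (2.55, SE 0.31, limma adjusted p = 0.0012).

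Smaller called differences were found for Csrp2 and Myl9. Csrp2, a LIM protein of smooth muscle and stromal cells, read 8.22 and 8.56 in WT against 10.10 and 9.89 in Hem1 KO cultures, 3.04-fold higher (1.60, SE 0.32, limma adjusted p = 0.0185). Myl9, the regulatory myosin light chain that Mylk phosphorylates, read 7.57 and 7.42 in WT against 9.26 and 8.66 in Hem1 KO cultures, 2.76-fold higher (1.47, SE 0.33, limma adjusted p = 0.0429). Csrp2 lost its call without WT replicate 1 (adjusted p = 0.178). Myl9 lost it when either WT array was left out (adjusted p = 0.103 without replicate 1 and 0.274 without replicate 2) and without Hem1 KO replicate 1 (adjusted p = 0.153), and was the called gene closest to the threshold.

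Just outside the threshold lay Cald1 and Tpm1. Cald1, caldesmon, a calcium-regulated brake on myosin, read 8.95 and 8.30 in WT against 9.90 and 10.06 in Hem1 KO cultures (1.36, SE 0.34, limma adjusted p = 0.0744). Tpm1, alpha tropomyosin, read 9.85 and 9.51 in WT against 11.10 and 10.78 in Hem1 KO cultures (1.26, SE 0.32, limma adjusted p = 0.0913). The genotypes did not overlap for either gene. Both passed after median centring (adjusted p = 0.0319 and 0.0198), after quantile normalization (0.0263 and 0.019) and with an intensity trend in the prior (2.67e-05 and 4.15e-07). Leaving out WT replicate 1 (0.0437) or Hem1 KO replicate 1 (0.0242) also gave Cald1 an adjusted p under the threshold, as did leaving out Hem1 KO replicate 2 for Tpm1 (0.0177).

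The other muscle-enriched genes ran from -0.21 to 0.81. The LIM protein Fhl1 of striated muscle read 5.81 and 5.64 in WT, above background on 1 of 2 arrays, and 6.92 and 6.15 in Hem1 KO cultures (0.81, SE 0.34). Pdlim5, which links kinases to the Z-disc, read 0.60 (SE 0.31), and Csrp1, a LIM protein of smooth muscle, 0.48 (SE 0.31), both as differences with no overlap between the genotypes. Flnc, the muscle filamin, was below background on both WT arrays and above it on 1 of 2 Hem1 KO arrays. Its difference of 0.52 (SE 0.31) therefore rests mostly on background. Filip1l, a filamin-interacting protein, read a difference of 0.02, Fhl3 one of -0.08 and Lima1, which crosslinks and stabilises filaments, one of -0.21, and the arrays of the genotypes overlapped for each. None of these 7 was called in the fit of all arrays.

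**Figure D3:**
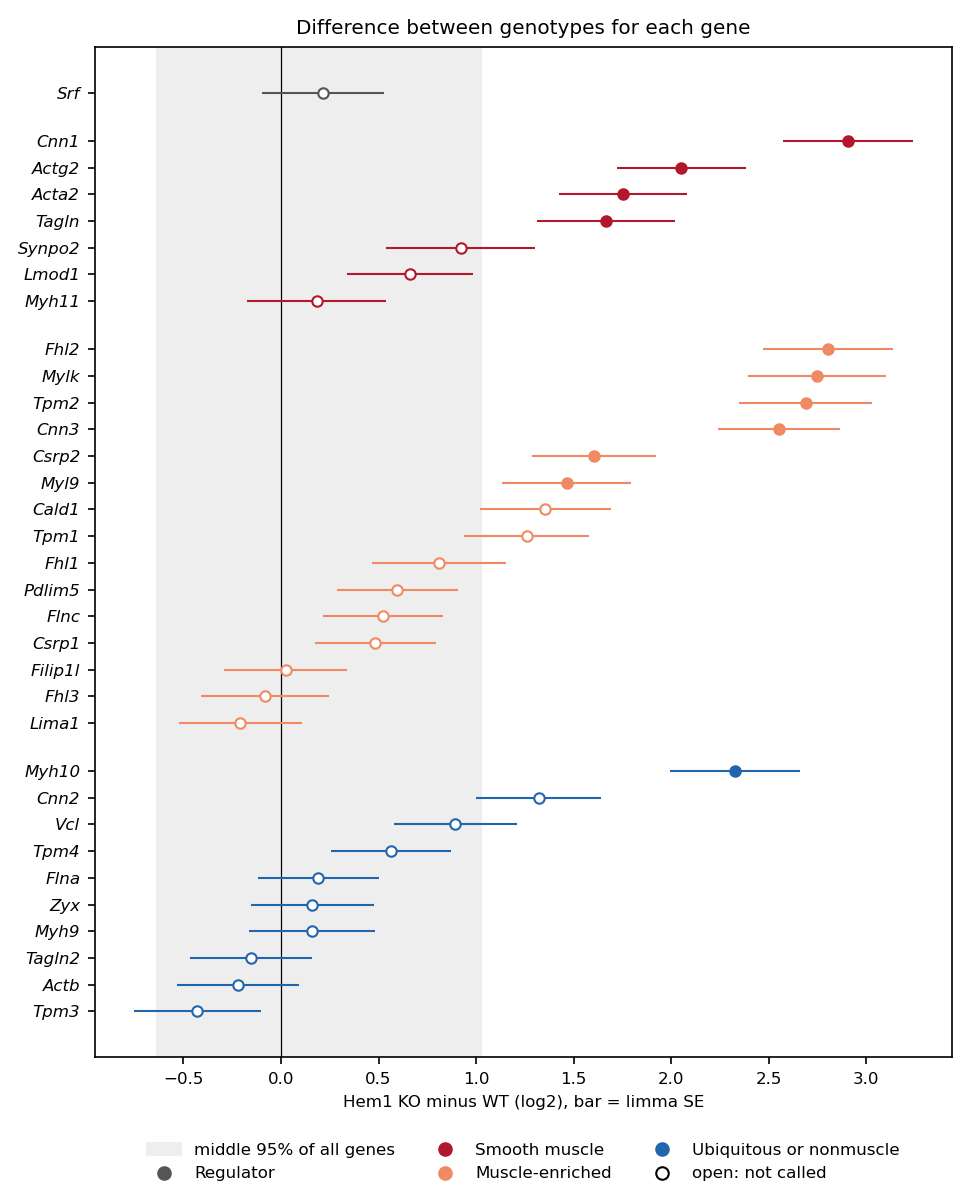
Log2 difference (Hem1 KO minus WT) of each gene, with limma's standard error as the bar, coloured by role and filled where called (2 arrays per genotype); the grey band holds the middle 95% of all genes, from -0.64 to 1.02. All 11 called genes and the uncalled Cald1, Cnn2 and Tpm1 lie to the right of the band.

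Of the genes grouped as ubiquitous or nonmuscle, Myh10 alone was called. Myh10 encodes nonmuscle myosin IIB, which is scarce in most blood cells and common in stromal cells. It read 7.63 and 7.07 in WT against 9.85 and 9.51 in Hem1 KO cultures, 5.02-fold higher (2.33, SE 0.33, limma adjusted p = 0.00257), with no overlap. Cnn2, the calponin of macrophages and other motile cells, read 7.60 and 7.17 in WT against 8.78 and 8.63 in Hem1 KO cultures (1.32, SE 0.32, limma adjusted p = 0.0688). Cnn2 passed after median centring (adjusted p = 0.0174), after quantile normalization (0.0162), with an intensity trend (0.00589) and without Hem1 KO replicate 2 (0.0208). Vcl, vinculin, which couples integrin adhesions to actin, read 8.56 and 8.37 in WT against 9.50 and 9.21 in Hem1 KO cultures (0.89, SE 0.32, limma adjusted p = 0.443).

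The remaining ubiquitous genes lay between -0.43 and 0.56. The difference was 0.56 for Tpm4, a tropomyosin of nonmuscle cells, 0.19 for filamin A, Flna, 0.16 for nonmuscle myosin IIA, Myh9, and 0.16 for the adhesion LIM protein zyxin, Zyx. It was -0.15 for transgelin 2, Tagln2, -0.22 for cytoplasmic beta actin, Actb, and -0.43 for the nonmuscle tropomyosin Tpm3, with standard errors of 0.31 to 0.33 for these 7 genes. Actb read 12.98 and 12.72 in WT against 12.61 and 12.65 in Hem1 KO cultures, and Tpm3 11.13 and 10.60 against 10.37 and 10.50. For both genes the Hem1 KO arrays lay under the WT arrays by margins smaller than the gap between the WT arrays.

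Within a protein family, the value of a muscle-type gene, or of Cnn3 or nonmuscle myosin IIB, was read on each array. That of a more widely made paralog was subtracted from it for 10 pairs, which cancels any shift common to the array. The pairs reuse Actb, Cnn2 and Myh9, so they are not independent, and no share over all gene pairs was computed to set them against. Alpha smooth muscle actin against beta actin, Acta2 minus Actb, stood at -2.26 and -2.52 in WT against -0.29 and -0.54 in Hem1 KO cultures. The pair therefore differed by 1.97, or 3.93-fold, with SDs of 0.18 in each genotype (n = 2 arrays). Tropomyosin Tpm2 against Tpm4 differed by 2.13, Tpm1 against Tpm3 by 1.69, Tagln against Tagln2 by 1.82, and Actg2 against Actb by 2.27. The last pair was added because Actg1 was not measured. Nonmuscle myosin IIB against IIA, Myh10 minus Myh9, differed by 2.17, from -3.78 and -3.88 in WT to -1.54 and -1.77 in Hem1 KO cultures.

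Both other calponins stood higher relative to Cnn2 in the Hem1 KO cultures, with shifts of 1.58 for Cnn1 and 1.23 for Cnn3, although Cnn2 itself differed by 1.32. In the filamin pair, Flnc was below background on both WT arrays and on 1 of 2 Hem1 KO arrays, and in the smooth muscle myosin pair Myh11 was below it on all 4. The values of these pairs, 0.33 for Flnc minus Flna (0.11 with overlapping genotypes after quantile normalization) and 0.02 for Myh11 minus Myh9, therefore rest mostly on background. An exact two-sided permutation test of 2 arrays against 2 cannot go under p = 0.333, so no shift could be called by that test. After Benjamini-Hochberg adjustment over the 10 pairs, the lowest value found was 0.37. Coding sequences of actin genes are much alike, and whether their probe sets were cross-read was not tested. The striated muscle actins Acta1 (difference 0.40, SE 0.41) and Actc1 (0.09, SE 0.33) were not called.

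**Figure D4:**
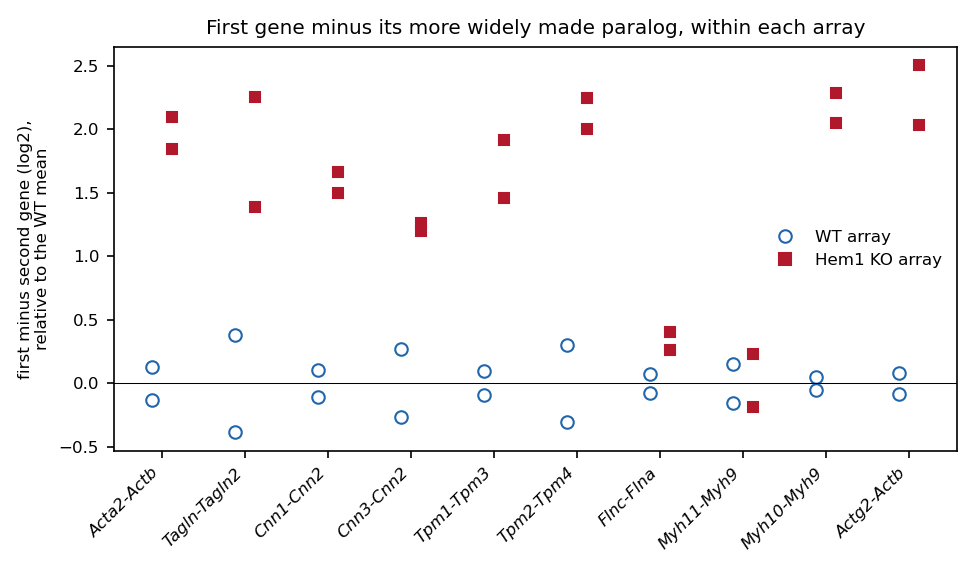
For each pair, the log2 value of the first gene minus that of the second on each array, set relative to the mean of the 2 WT arrays (open circles WT, filled squares Hem1 KO). The pairs other than Flnc-Flna and Myh11-Myh9 shift by 1.23 (Cnn3-Cnn2) to 2.27 (Actg2-Actb); in those 2 the first gene is mostly below background.

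Regulators of the pathway were mostly not called, and more lay under 0 than over it. Of 18 measured out of 19 listed, limma called 1 higher (5.56%, beside 1.48% of all genes) and 0 lower. Before adjustment, 1 in each direction had p under 0.05 by limma, and the median difference was -0.15. By fitted difference 13 lay under 0 and 5 over it (27.8%), beside 51.8% of all genes over 0. Both Hem1 KO arrays lay below both WT arrays for 6 of the 18, beside 13.3% of all genes. They lay above both for 1, beside 12.5%. Tgfb1i1, the LIM adaptor Hic-5 of smooth muscle and stromal cells, read 6.82 and 6.35 in WT against 8.74 and 8.43 in Hem1 KO cultures, 4.001-fold higher (2.00, SE 0.33, limma adjusted p = 0.00519). The coactivator genes Mrtfa (-0.32, SE 0.38) and Mrtfb (-0.50, SE 0.31) were not called, nor was the GTPase gene Rhoa (-0.18, SE 0.32). Myocd, which encodes myocardin, lay below background on all 4 arrays. The formin Diaph1, an actin nucleator downstream of RhoA, read 9.21 and 9.03 in WT against 8.38 and 8.24 in Hem1 KO cultures (-0.81, SE 0.31, limma adjusted p = 0.583).

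Of 24 measured out of 26 further contractile and SRF-linked genes, limma called 3 higher (12.5%, beside 1.48% of all genes) and 0 lower. Before adjustment the counts were 5 and 0, and the median difference was 0.34. For 12 of the 24 (50%), both Hem1 KO arrays lay above both WT arrays, beside 12.5% of all genes. They lay below both for 1, beside 13.3%. Ccn1, a secreted matricellular protein and a target of both MRTF-SRF and YAP-TEAD, read 8.35 and 8.19 in WT against 10.58 and 10.55 in Hem1 KO cultures, 4.91-fold higher (2.30, SE 0.31, limma adjusted p = 0.00211). Kcnmb1, a potassium channel subunit of smooth muscle, read 7.26 and 6.72 in WT against 8.89 and 8.22 in Hem1 KO cultures, 2.96-fold higher (1.56, SE 0.35, limma adjusted p = 0.0415). Nexn, the filament protein nexilin, was below background on both WT arrays and at least 2.21-fold higher (limma adjusted p = 0.047). The call of Kcnmb1 ended without WT replicate 2 (adjusted p = 0.412) or Hem1 KO replicate 1 (0.106), and that of Nexn without WT replicate 2 (0.804). In the fit lacking WT replicate 2, Ccn1 alone of the 24 was called. Desmin, Des, the intermediate filament protein of muscle, lay below background on all 4 arrays.

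Stromal markers moved in the same direction as the contractile genes. Of 11 measured out of 12 stromal fibroblast markers, limma called 5 higher (45.5%, beside 1.48% of all genes) and 0 lower. Before adjustment the counts were 8 and 0, and the median difference was 1.57. For 8 of the 11 (72.7%), both Hem1 KO arrays lay above both WT arrays, beside 12.5% of all genes. They lay below both for 0. Leaving out arrays one at a time, limma called 3 in the fit lacking WT replicate 2, 7 in that lacking Hem1 KO replicate 2, and 5 or 6 in the others. Their summed level on the linear scale was 2307 and 2103 in WT against 8098 and 5523 in Hem1 KO cultures. Lum, Thy1 and Lepr lay below background on all arrays, while Pdgfrb, a receptor of fibroblasts and pericytes, read 7.96 and 7.73 in WT against 10.22 and 10.19 in Hem1 KO cultures. Of 8 pericyte markers outside the 35 genes, limma called 0 (2 higher and 0 lower before adjustment), with a median of 0.37. Their sums were 499 and 358 in WT against 725 and 570 in Hem1 KO cultures. Both Hem1 KO arrays lay above both WT arrays for 3 of the 8 (37.5%), beside 12.5% of all genes, and below both for 0. These 3 were Mcam (1.25), Cspg4 (1.05) and Notch3 (0.50). By fitted difference 5 of the 8 lay over 0 and 3 under, and Abcc9, Des and Myocd were below background on all arrays.

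Macrophage markers were not called. All 9 measured lay under 0 by fitted difference, and limma called 0 (0 higher and 1 lower before adjustment), with a median of -0.30. For 5 of the 9, both Hem1 KO arrays lay below both WT arrays, beside 13.3% of all genes. They lay above both for 0, beside 12.5%. The sums were 36434 and 27747 in WT against 26898 and 24627 in Hem1 KO cultures. Of 6 endothelial markers, 1 was called higher, the cadherin Cdh5 (at least 1.86-fold, limma adjusted p = 0.00622; Pecam1 as well without Hem1 KO replicate 2), with sums of 692 and 323 in WT against 617 and 572 in Hem1 KO cultures and Tek below background on all arrays. Limma called 0 of 8 striated muscle markers (0 before adjustment), with sums of 682 and 522 in WT against 719 and 520 in Hem1 KO cultures and Tnnt2 and Ttn below background on all arrays. It called 0 of 5 measured platelet markers (0 higher and 1 lower before adjustment), with sums of 7144 and 6499 in WT against 7790 and 6051 in Hem1 KO cultures. The part of any of these cell types in the contractile differences was not tested, and which cells held the transcripts was not measured.

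**Figure D5:**
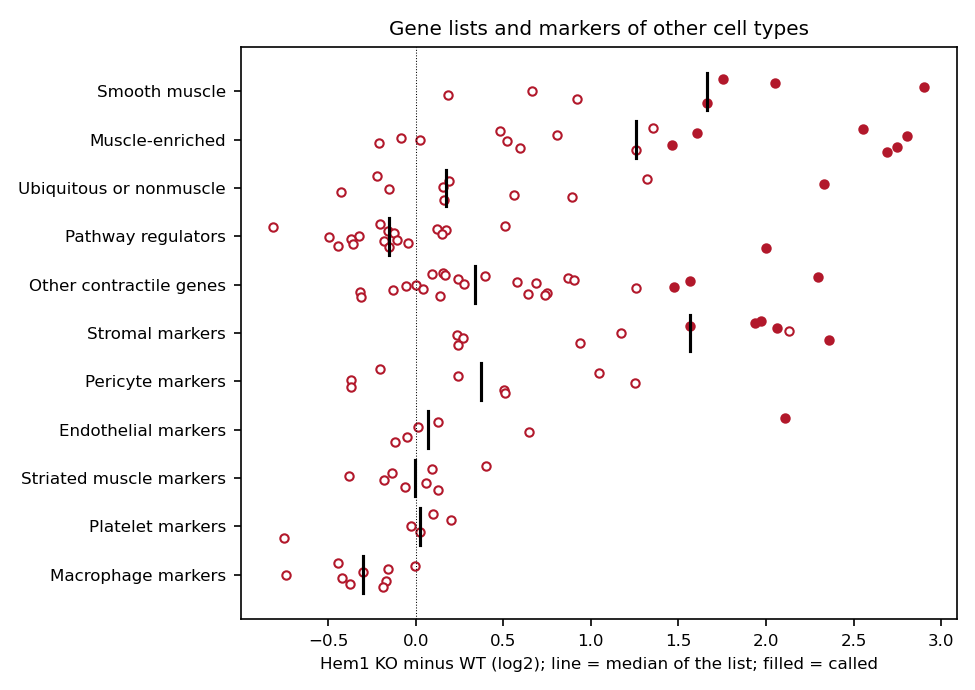
Log2 difference (Hem1 KO minus WT) of each gene (circle, filled where called) of the role groups, the other pathway genes and the cell type marker lists, with the median of each list as a line. The smooth muscle, muscle-enriched and stromal lists have medians of 1.66, 1.26 and 1.57, the pathway regulators -0.15 and the macrophage markers -0.30.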

How the data were processed

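RNA from 2 WT and 2 Hem1 KO macrophage cultures was measured on 1 array each, as log2 values deposited by the authors. RMA made them, per the submitters' processing notes, with no version or settings named. Array medians over genes differed (6.42 to 6.95), and the values were used as deposited. The sources used here give no genome build for the probes.

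Of 29129 rows in the table, 19572 name 1 gene, 0 name several and 9557 none. The brightest probe set per gene was kept for the 55 genes with more than 1. All 19505 genes were fitted with limma 3.58.1 (lmFit, eBayes) in R 4.3.3, with a genotype term, two-sided, and Benjamini-Hochberg adjusted. The code was tested on simulated data. A gene below background on both arrays of 1 genotype and above it on both of the other has a bound in place of a fold. The bound sets the brighter mean against the higher of background and own value, and carries no error. All 35 genes are named, with every called pathway gene and up to 2 others. Members, lists, role groups and pairs were chosen with earlier results of these data known. Other genes named, and the background level, were chosen after values were seen.

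Alternatives left out each array, used the replicate number as a block, averaged probe sets, centred or quantile normalized arrays, dropped dim genes, let the prior follow intensity, or raised the threshold to 0.10.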

Additional observations from a re-analysis of the deposited data

How the results depend on the processing

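The count of contractile genes called higher, 11, was 8 to 14 when any single array was left out and 9 to 16 under the other alternatives, with 0 called lower under each alternative run. Leaving out WT replicate 2 gave 8. Of the 11, 7 stayed called in each fit without 1 array: Actg2, Cnn1, Cnn3, Fhl2, Mylk, Tpm2 and Myh10. Dropping dim genes ended the calls of Myl9 (adjusted p = 0.0934) and Tagln (0.1). Centring lowered every difference by 0.10 and turned the sign of Filip1l, and quantile normalization turned those of Filip1l and Fhl3. The median over the 33 genes, 0.81, was 0.71 after centring, 0.70 after quantile normalization and 0.55 to 1.04 without 1 array. Without 1 array the median was 1.34 to 1.99 for the smooth muscle genes. It was 1.03 to 1.43 for the muscle-enriched genes and 0.12 to 0.33 for the ubiquitous ones. The Myh11-Myh9 shift was -0.21 after quantile normalization and -0.18 to 0.23 without 1 array; the cause was not tested. After quantile normalization Flnc-Flna shifted by 0.11 (exact permutation p = 1). For the single genes, over the alternatives other than the 0.10 threshold, 301 fits kept the side of the threshold, 19 gained a call and 8 lost one; at 0.10, Cald1, Cnn2 and Tpm1 were gained. Averaging probe sets left the differences of the 33 genes unchanged, and its fits count among the 301. Where 1 array stood for a genotype, its variance was taken from the other genotype.

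Over all genes, 288 were called higher and 26 lower. These counts were 400 and 70 after centring, 314 and 16 after quantile normalization, 165 and 8 without dim genes (fewer genes tested), and 409 and 205 with an intensity trend, and they ran from 185 to 545 and from 26 to 101 without 1 array. The lowest count of higher genes came without WT replicate 2 and the highest without Hem1 KO replicate 2. With the replicate number as a block, 620 were called higher and 199 lower, and 16 contractile genes were called higher, the 11 with Cald1, Cnn2, Synpo2, Tpm1 and Vcl added. The arrays share only a number: deviations of same-numbered arrays correlated at 0.24 across genes, with 2 pairs, which does not settle a pairing.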
